A study of Mus musculus with 5 samples.

Results

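The genes described here encode pre-mRNA splicing factors and heterogeneous nuclear ribonucleoproteins (hnRNPs), measured in liver RNA of 5 groups of mice. They were taken as every gene whose single annotated symbol begins with Hnrnp, with Srsf, Sf3a, Sf3b or Prpf and a digit, or with Snrp. This gave 54 genes with 138 probe sets, of 12393 genes with 20380 probe sets that carry 1 symbol on the array. By role they comprise 18 hnRNP genes, 9 SR protein genes (Srsf), 9 genes of the SF3a and SF3b complexes, 8 genes of Sm and other small nuclear ribonucleoprotein (snRNP) proteins (Snrp) and 10 PRP factor genes (Prpf). Each gene is represented by its probe set with the highest mean log2 signal over the 5 arrays.

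The mice were C57B/L animals, aged 8 weeks, that all had 2 weeks of maintenance before the study feed began. A short pair of groups received standard chow or an atherogenic diet, a feed used to raise blood cholesterol, for 1 week. The long groups received chow for 10 weeks, the atherogenic diet for 10 weeks, or that diet for 10 weeks with atorvastatin, an inhibitor of cholesterol synthesis, in the final 3 weeks. Livers of a group were pooled before RNA extraction and each pool was hybridised to 1 oligonucleotide array, so there are no replicates, no test was possible, and all values describe these pools. The source name of the 1-week diet sample says chow, while its title, description and protocols say diet; it was grouped by its title.

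Splicing removes introns from pre-mRNA in the nucleus. The U1, U2, U4, U5 and U6 snRNPs, each built around a small RNA, assemble on the splice sites. A ring of Sm proteins forms the core of most snRNPs, and SF3a and SF3b belong to the U2 snRNP and hold it at the branch point. Many PRP factors act in the tri-snRNP or during activation. SR proteins bind exons and mostly favour their inclusion, whereas hnRNPs coat nascent RNA and often oppose exon use. Many SR protein and hnRNP genes also control their own RNA level through exons or introns that send the transcript to decay.

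Signals are MAS5 values on a linear scale, one per probe set and array. A floor at 138.8, the 40th percentile of all signals, was set before log2 was taken, and a ratio was formed for genes that exceeded this floor on 1 or both arrays of a pair. Such genes are called measured. Of the 54 genes 45 were above the floor on all 5 arrays. Snrpn, an imprinted Sm protein gene (signals 17.0 to 40.7), and Prpf31, a tri-snRNP factor gene (62.5 to 93.5), were below it on every array and give no ratio. A 2-fold ratio, a log2 ratio of 1, was used as the size for counting, and the share of all measured genes past it in the same pair of arrays is the background.

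The array quality values touch several results. The ratio of 3' to 5' signal lay between 0.783 and 1.01 for the Gapdh control and between 1.17 and 1.73 for beta-actin. The 18S ribosomal RNA control signal was 13900 on the atorvastatin array and 437 to 2190 on the others. The share of probe sets above the floor was 57.2% on the 1-week diet array and 60.1% to 61.3% on the others. Spearman correlations between arrays lay between 0.91 and 0.945.

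For liver identity, all 9 hepatocyte markers with a probe set were measured in every comparison, with a summed signal of 194784 on the 1-week diet array to 379989 on the 10-week chow array. Summed signals of the 10 macrophage and Kupffer cell markers ran from 8809 on the 10-week chow array to 22366 with atorvastatin, and those of 8 endothelial markers from 2965 to 4805. Of the 11 cycling cell markers with a probe set 6 were below the floor on all arrays, Mki67 and Top2a among them. Of 4 cholangiocyte markers 3 were below the floor, Krt7, Epcam and Sox9, and of 7 lymphocyte markers Cd2. In pooled tissue, fewer cells of a type and less RNA per cell cannot be told apart.

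Most hnRNP genes were highest after 1 week of the diet and lowest on one of the long-diet arrays. Of 17 hnRNP genes above the floor on all arrays, 11 had their highest signal on the 1-week diet array, where 18.7% of all such genes did. For 10 of the 17 the lowest signal was on the atorvastatin array, against 18.3% of all such genes (Hnrnph2, counted here, had equal signals on both long-diet arrays to the decimal printed), and for 4 it was on the 10-week diet array, against 19.3%. On the 10-week diet array 0 of the 17 were highest (27% of all genes) and on the 1-week diet array 2 were lowest (25% of all). On 10-week chow 0 were lowest (20.2% of all). Over the 42 hnRNP probe sets above the floor on all arrays, which share target genes, 20 were highest on the 1-week diet array (20.5% of all probe sets). Of these 42, 15 were lowest with atorvastatin (18.9% of all) and 15 on the 10-week diet array (20% of all).

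Upstream sequences of 4 of the hnRNP genes that were lower on the 10-week diet array than on the 1-week diet array are shown, because these genes were lower together and each has a single annotated start. Each window is the 150 bases before the start site in RefSeq, build GRCm38.p6, on the strand of the gene, with the letters CCAAT or their complement ATTGG in capitals.
Hnrnph2 (chrX:134601029-134601178, plus strand): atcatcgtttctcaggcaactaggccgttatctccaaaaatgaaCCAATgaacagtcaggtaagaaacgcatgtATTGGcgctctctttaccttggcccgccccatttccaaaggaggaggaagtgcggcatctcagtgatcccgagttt
Hnrnpk (chr13:58402118-58402267, minus strand): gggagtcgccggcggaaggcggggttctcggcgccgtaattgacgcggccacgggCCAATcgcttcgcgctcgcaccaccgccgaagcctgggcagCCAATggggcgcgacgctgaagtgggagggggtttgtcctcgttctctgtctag
Hnrnpl (chr7:28810740-28810889, plus strand): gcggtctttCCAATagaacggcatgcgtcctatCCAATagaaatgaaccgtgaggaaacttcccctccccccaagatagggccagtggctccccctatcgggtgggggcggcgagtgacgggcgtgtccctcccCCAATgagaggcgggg
Hnrnpd (chr5:99978939-99979088, minus strand): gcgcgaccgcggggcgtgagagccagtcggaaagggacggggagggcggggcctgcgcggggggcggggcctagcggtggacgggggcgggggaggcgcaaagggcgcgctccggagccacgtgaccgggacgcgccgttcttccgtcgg

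Hnrnpl held 3 such matches, Hnrnph2 and Hnrnpk 2 each, and Hnrnpd 0. Windows were found for 49 of the 54 genes by symbol. A gene with several starts has several windows and was counted if any of them held the motif. CCAAT on either strand was in a window of 11 of 16 hnRNP genes (68.8%) and of 23 of 49 member genes (46.9%). The share was 31.0% of the 7923 genes above the floor on at least 1 array and 27.7% of all genes with a window. Counted by window, it was in 13 of 25 hnRNP windows (52.0%) and 38.2% of member windows. By window the share was 26.1% for genes above the floor and 24.5% for all windows of this length. The other motifs were searched on both strands in the same windows. The ETS core CCGGAA was in 21 of 49 member genes (42.9%) but in 1 of 16 hnRNP genes. It was in 18.5% of the genes above the floor and 10.6% of all genes with a window. The GC box GGGCGG was in 28 of the 49 (57.1%, against 54.9% and 31.3%), and the TATA box TATAAA in 3 (6.12%, against 5.83% and 8.89%). Motifs were searched independently, so neighbouring matches may share bases. A match is a description of letters and not a bound site.

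**Figure D1:**
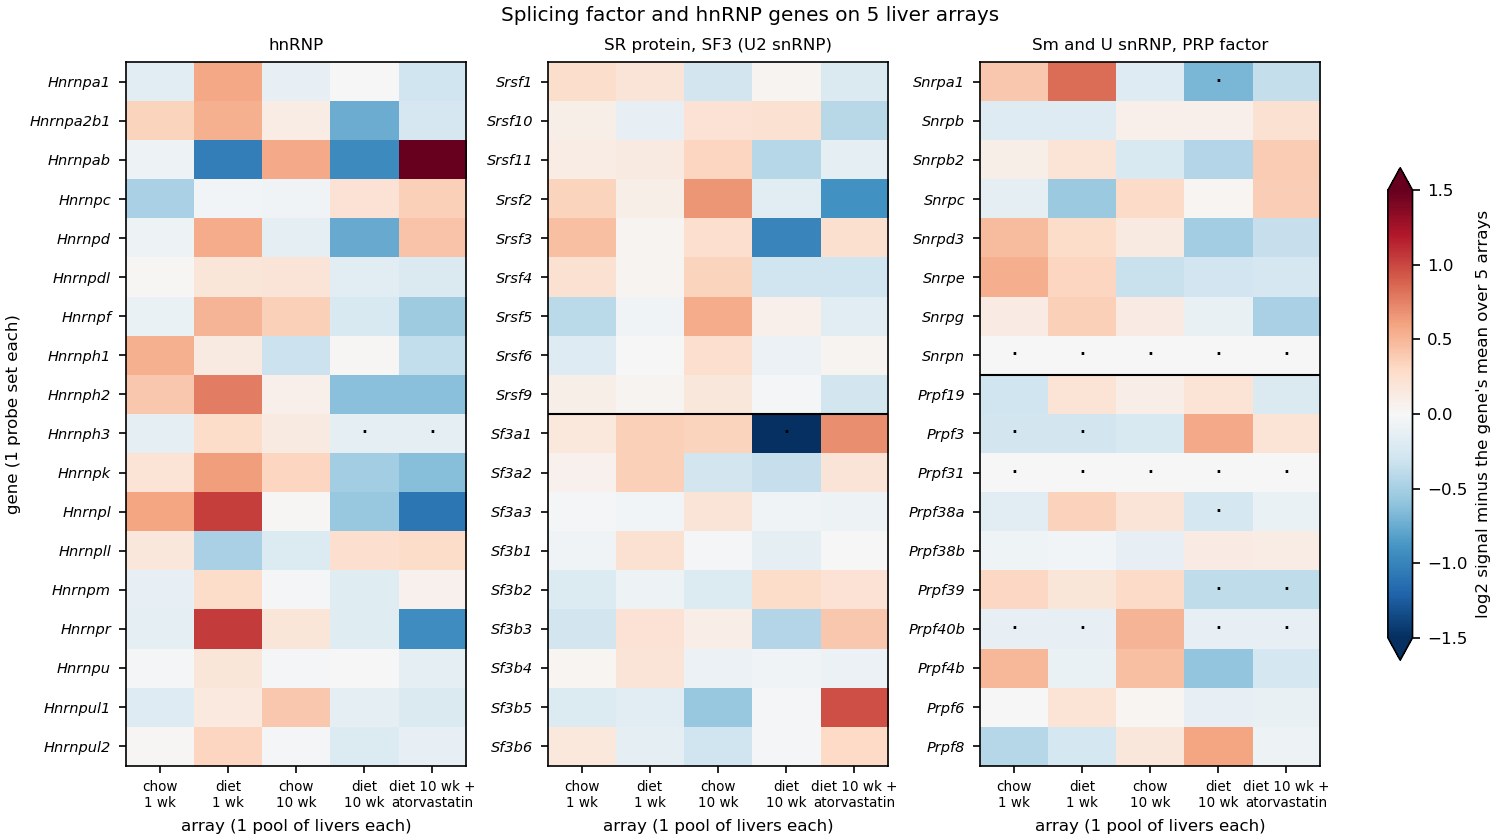
Log2 signal of each of the 54 genes minus its mean over the 5 arrays, with signals below the floor of 138.8 set to it and marked by a dot; rows are genes by class and columns are arrays, and the colour scale stops at 1.5 in each direction. Red cells gather in the 1-week diet column of the hnRNP genes and blue cells in both long-diet columns. Among the exceptions, Hnrnpll runs the other way and Hnrnph1 is highest on 1-week chow. Hnrnpab is low on both diet arrays without the drug, and Hnrnpab and Hnrnpc are highest with atorvastatin.

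After 1 week of the diet, hnRNP genes were mostly higher than on chow at 1 week. Of 18 measured, 15 had a log2 ratio above 0, where 46.1% of all measured genes did, and the median ratio was 0.38 against -0.03 for all genes. Only Hnrnpr was past 2-fold, 1 of the 50 members measured (2.00%), against a background of 2.3% in either direction, 1.06% higher and 1.24% lower. The median was 0.17 for SF3 genes, with 7 of 9 ratios above 0, and 0.17 for PRP factors, with 5 of 7 above 0. It was -0.07 for SR proteins (3 of 9 above 0) and -0.01 for Sm and snRNP genes (3 of 7). Whether the classes differ was not tested. No marker list of hepatocytes (median -0.21), macrophages (-0.17) or endothelium (-0.47) had a member past 2-fold in this pair, and the part of cell makeup in the hnRNP ratios was not tested.

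Hnrnpr encodes an hnRNP R protein that binds nascent transcripts. Its signal was 355 on chow and 803 on the diet at 1 week, 441 on chow and 343 on the diet at 10 weeks, and 204 with atorvastatin. The 1-week diet array stood highest and the atorvastatin array lowest. Its log2 ratio at 1 week was 1.18. The probe set used is of the type that can cross-hybridise (suffix x), and the other probe set above the floor on all arrays gave 0.34 at 1 week.

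Hnrnpa1, which encodes a repressor of exon inclusion, had signals of 640 on chow and 1064 on the diet at 1 week, then 651, 709 and 580 on 10-week chow, 10-week diet and atorvastatin. By this probe set, also with suffix x, the 1-week diet array stood above the other 4, which lay close together. A second probe set was highest there too (751). It spread more on the others, with 401 on 1-week chow, then 539, 396 and 312 on 10-week chow, 10-week diet and atorvastatin. The Hnrnpa1 ratio at 1 week was 0.73 by the set used and 0.90 by the second. Next were Hnrnpd at 0.64 and Hnrnpf, which encodes a binder of G-rich RNA, at 0.61. The other Hnrnpf probe sets gave 1.43, -0.29 and -0.48, so the Hnrnpf direction depends on the probe set. At the other end of the 1-week comparison were Hnrnpab (-0.96), Hnrnpll, a regulator of CD45 splicing in lymphocytes (-0.65), the kinase gene Prpf4b (-0.60) and the U1 snRNP gene Snrpc (-0.42), all inside 2-fold. The other Hnrnpab probe sets ran from -0.24 to 0.67, with a mean over all sets of -0.06, and those of Prpf4b from -0.42 to 0.44, so both directions depend on the probe set.

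Between 10 weeks and 1 week of the diet, 9 of 51 measured members (17.6%) were at least 2-fold lower and 0 higher. The background for this pair was 3.68% lower, 4.78% higher and 8.45% in either direction. The 9 were Hnrnpa2b1, Hnrnpd, Hnrnph2, Hnrnpk, Hnrnpl, Hnrnpr, Srsf3, Sf3a1 and Snrpa1. The median log2 ratio was -0.35 for the members and -0.50 for the 18 hnRNP genes, against 0.11 for all genes. Of the 18, 15 had a negative ratio, where 41.4% of all measured genes did and 58.6% lay above 0. Over probe sets the count was 17 of 126 lower by at least 2-fold (13.5%, against 4.86% of all probe sets) and 1 higher. The mice of the 10-week array were also older. In the same pair the hepatocyte markers had a median of 0.50 and the macrophage markers 0.50, with 1 macrophage marker past 2-fold in each direction, and their part in the hnRNP ratios was not tested.

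Hnrnpl, which encodes a regulator that binds CA repeats, had signals of 600 on chow and 817 on the diet at 1 week, and of 402 on chow, 268 on the diet and 187 with atorvastatin at 10 weeks. Both 1-week arrays stood above all 10-week arrays. The ratio of the diet at 10 weeks to the diet at 1 week was -1.61, and that of chow at 10 weeks to chow at 1 week -0.58.

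Hnrnph2, a gene of the G-run binding hnRNP H family, had 781 and 1004 at 1 week on chow and diet, 620 on chow at 10 weeks, and 381 on both long-diet arrays. The long-diet arrays were thus the lowest and did not differ from each other. The ratio between the diet times was -1.40.

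Hnrnpk encodes a KH-domain protein that binds C-rich RNA. It had 4087 and 5500 on chow and diet at 1 week, 4448 on chow at 10 weeks, 2480 on the diet at 10 weeks and 2284 with atorvastatin. By this probe set the 3 arrays of chow or short diet stood apart from both long-diet arrays. The ratio between the diet times was -1.15, and the other 3 probe sets gave -0.30, -0.42 and -0.64. The separation of arrays was not shared by all of them. Another probe set had 1549 on 1-week chow and 1600 on the 10-week diet, and a further one 563 on 1-week chow and 577 with atorvastatin. The remaining one kept the order, with 1654 on 1-week chow and 1574 on the 10-week diet.

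Hnrnpa2b1, which encodes core hnRNPs that are among the most abundant, had 2608 and 2982 at 1 week, 2234 on 10-week chow, 1234 on the 10-week diet and 1732 with atorvastatin. Its ratio between the diet times was -1.27, with -1.0, -0.30 and -0.07 from its other probe sets. Hnrnpd, also known for binding AU-rich elements that set mRNA decay, had 652 and 1014 at 1 week, 628 on 10-week chow, 407 on the 10-week diet and 925 with atorvastatin. The 10-week diet array was its lowest, while the atorvastatin array was close to the 1-week diet array.

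**Figure D2:**
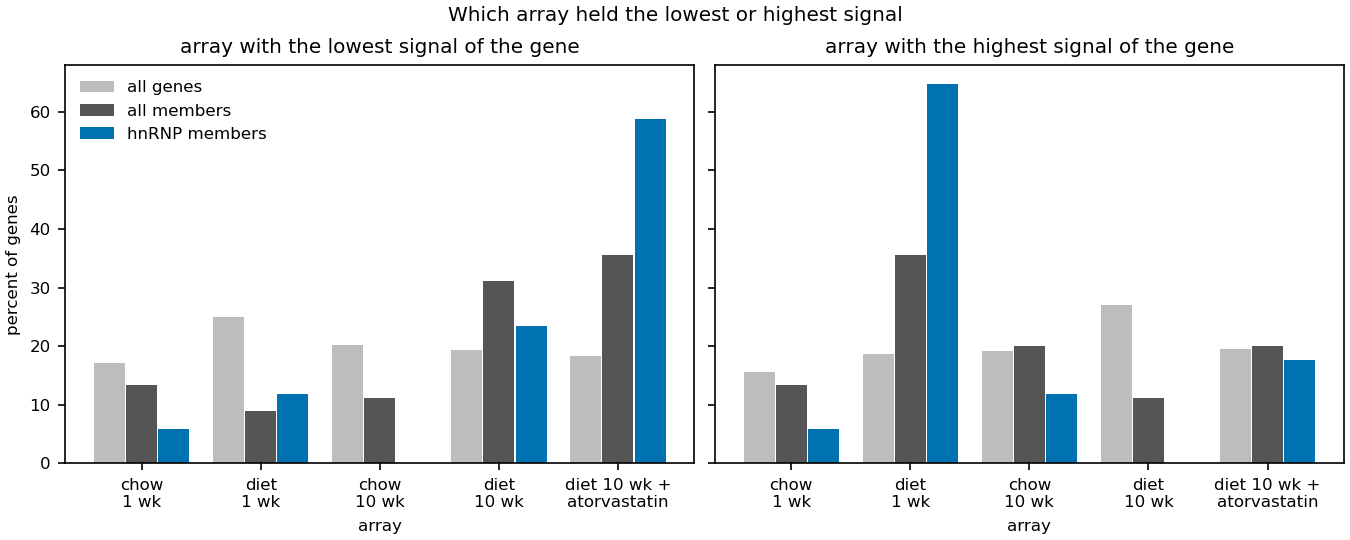
Percent of genes above the floor on all 5 arrays whose lowest (left) or highest (right) signal was on each array, for all 6929 such genes, the 45 members and the 17 hnRNP members; the y axis is in percent of genes. The tallest hnRNP bars are the 1-week diet array on the right (11 of 17) and the atorvastatin array on the left (10 of 17).

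After 10 weeks of the diet, members were lower than on chow at 10 weeks by median but few passed 2-fold. The median log2 ratio was -0.26 for the 52 measured members against 0.05 for all genes, and 35 of the 52 had a negative ratio, where 45.7% of all genes did. At least 2-fold lower were 4 of the 52 (7.69%) and 0 were higher, with a background of 3.07% lower, 3.59% higher and 6.65% in either direction. The 4 were Hnrnpab, Srsf3, Sf3a1 and Prpf4b. By class the medians were -0.48 for SR proteins, -0.36 for hnRNPs, -0.24 for Sm and snRNP genes, -0.15 for PRP factors and -0.07 for SF3 genes. Beside this, macrophage markers had a median of 0.78 with 4 of 9 past 2-fold higher, endothelial markers 0.45 with 3 of 8 past it, and hepatocyte markers -0.49 with 1 of 9 lower, and their part in the members' ratios was not tested.

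When the 10-week diet array was set against 1-week chow, the member median was -0.13 with 7 of 51 lower and 1 higher, where 6.34% of all genes were past 2-fold. Sf3a1 (-1.69 as a bound), Srsf3 (-1.44) and Prpf4b (-1.08) were lower by 2-fold with either chow array, and Hnrnpl (-1.16), Snrpa1 (-1.09 as a bound), Hnrnpa2b1 (-1.08) and Hnrnph2 (-1.04) only with the 1-week array. Prpf8, which encodes the protein at the catalytic centre of the spliceosome, was the 1 higher gene (1.03). The comparisons with 10-week chow and the chow pair share an array, so a deviation of it enters them with opposite sign.

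**Figure D3:**
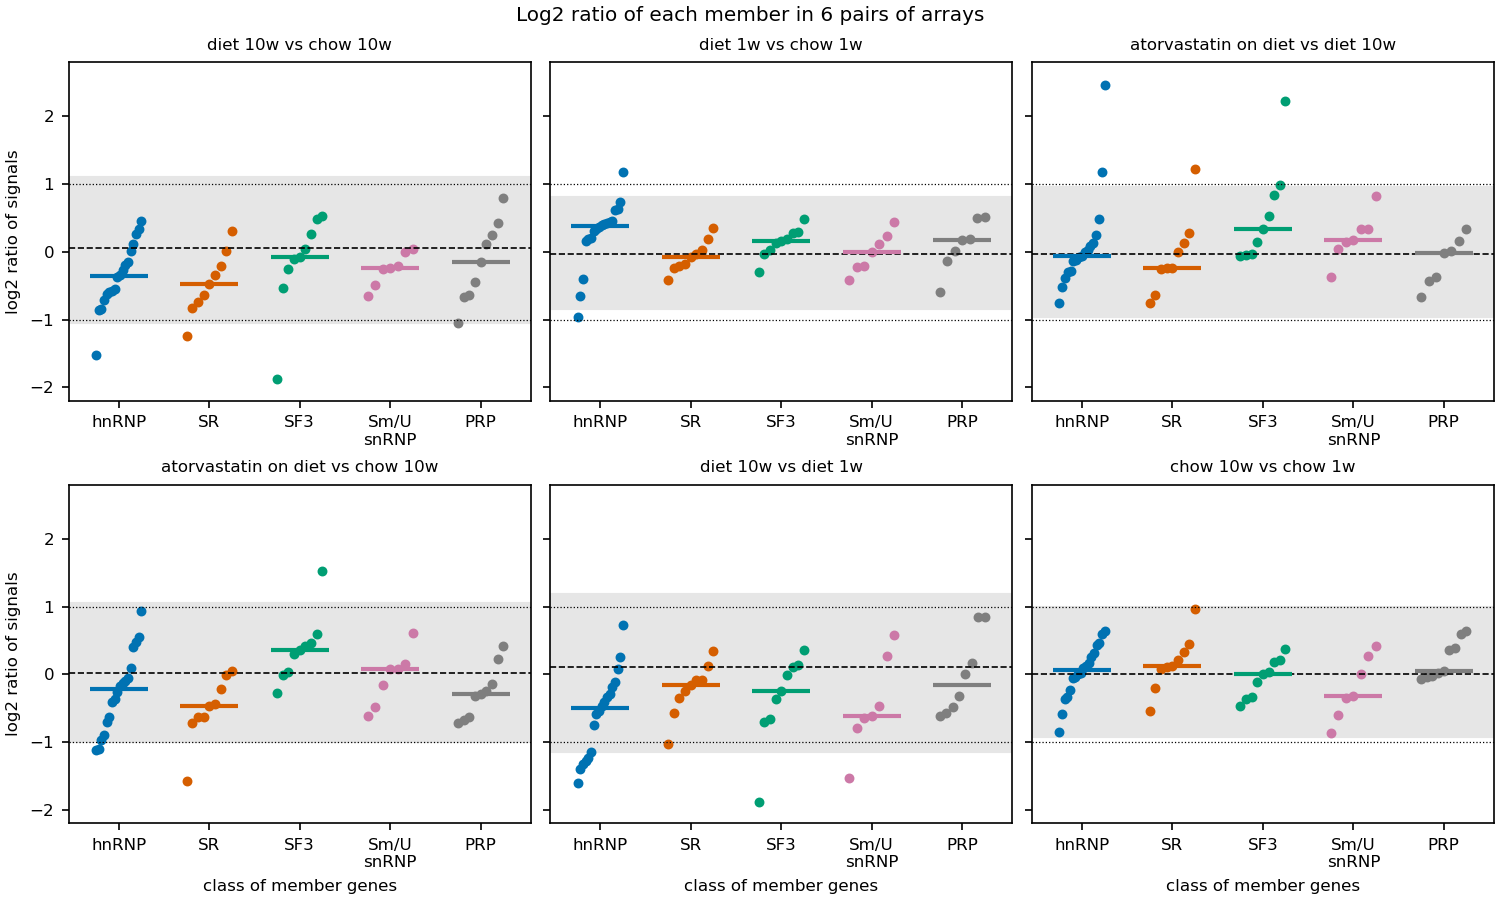
Log2 ratio of each measured member (points) in 6 pairs of arrays, by class on the x axis, with the class median as a bar. The dashed line is the median of all measured genes, the grey band holds their central 95%, and dotted lines mark 2-fold; in the pair of diet times the hnRNP points reach -1.61 and their median is -0.50.

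Srsf3 encodes the smallest SR protein, which in mouse liver is needed for hepatocyte maturation. Its signal was 926 and 695 on chow and diet at 1 week, 808 on chow at 10 weeks, 342 on the diet at 10 weeks and 800 with atorvastatin. The 10-week diet array stood alone below the other 4. The ratio to 10-week chow was -1.24, and 4 other probe sets measured in that pair gave -0.42 to 0.32. With the mean of its probe sets the ratio was -0.24.

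Sf3a1, the gene of the largest SF3a subunit, showed the widest gap. It had 448 and 514 at 1 week, 508 on chow at 10 weeks, 47.7 on the diet at 10 weeks and 650 with atorvastatin. The 10-week diet signal was below the floor, so it was at least 3.66-fold lower than on 10-week chow and at least 3.70-fold lower than on the diet at 1 week. The other Sf3a1 probe set was near the floor on all arrays, with its lowest signal (112) on the same array and its highest (220) with atorvastatin.

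Hnrnpab, an hnRNP gene of the A/B type, had 2731 and 1402 at 1 week, 4255 on 10-week chow, 1477 on the 10-week diet and 8127 with atorvastatin. By this probe set both diet arrays without the drug were low and the atorvastatin array was the highest. Of the other 4 measured probe sets none was highest with atorvastatin, and they gave -0.24, -0.22, 0.35 and 0.67 at 1 week of diet. The 10-week diet ratio was -1.53, and the other 4 measured probe sets gave -1.13, -1.09, -0.94 and -0.20, so all 5 were negative. Prpf4b, which encodes a kinase of the tri-snRNP, had 450 and 298 at 1 week, 439 on 10-week chow, 212 on the 10-week diet and 267 with atorvastatin. Its ratio at 10 weeks was -1.05, and its other 5 probe sets gave -0.70 to 0.44.

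SR protein genes tended to be highest on the 10-week chow array, for 6 of 9 genes against 19.2% of all genes. Those 6 were, by the probe sets used, Srsf2, Srsf4, Srsf5, Srsf6, Srsf9 and Srsf11. A second probe set peaked on the 1-week diet array for Srsf6 (1409) and Srsf11 (531), and one of Srsf2 on the 10-week diet (570). The remaining sets of Srsf6 and Srsf2 were highest on 10-week chow. Srsf5, whose RNA is known to respond to hormones and growth signals, had 2364 and 3016 at 1 week, 4596 on 10-week chow, 3298 on the 10-week diet and 2793 with atorvastatin. Its chow ratio of 10 weeks to 1 week, 0.96, was the largest of any member in that pair. Against 10-week chow 7 of 9 SR genes were lower on the diet (median -0.48) and 8 of 9 with atorvastatin (median -0.46). Against 1-week chow these medians were -0.23 and -0.36, with 6 and 7 of 9 negative, where 44.3% and 46.0% of all genes were. Hepatocyte marker signals were also highest on the 10-week chow array, and their part was not tested.

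At the upper end of the 10-week diet comparison no member passed 2-fold. The highest ratios were those of the tri-snRNP gene Prpf3 (0.80), the SF3b subunit genes Sf3b5 (0.53) and Sf3b2 (0.48), and Hnrnpll (0.45). The other Hnrnpll probe set gave -0.06, and other Sf3b2 probe sets ran from -0.34 to 0.78. Prpf8 had 1077 and 1215 at 1 week, 1633 on 10-week chow, 2195 on the 10-week diet and 1381 with atorvastatin, a ratio of 0.43.

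With atorvastatin added to the diet, 4 of 49 members (8.16%) stood 2-fold or more above the diet alone and 0 below, against a background of 2.16% higher, 2.12% lower and 4.28% in either direction. The 4 were Hnrnpab (2.46), Sf3a1 (at least 4.68-fold), Srsf3 (1.23) and Hnrnpd (1.18). The member median was 0.01, against -0.02 for all genes, and 26 of the 49 ratios were above 0, where 47.5% of all genes were. Srsf3, Sf3a1 and Hnrnpab were also the lower members in the 10-week diet comparison, which shares the 10-week diet array. Against 10-week chow their atorvastatin ratios were -0.01, 0.36 and 0.93. The other Hnrnpab probe sets gave -0.51, -0.36, -0.26 and 0.40 there, with a mean over all sets of 0.03.

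The Hnrnpab ratio of 2.46 came from 1 probe set. The other 4 measured Hnrnpab probe sets gave 0.58, 0.59, 0.62 and 0.83. The Srsf3 ratio of 1.23 likewise came from 1 probe set, the others gave -0.48, 0.27 and 0.45, and the mean over sets was 0.25. Counted by gene, the SF3 class had the highest class median, 0.33, with Sf3b5 at 0.99 and Sf3b3, another SF3b subunit gene, at 0.84. Counted by probe set, the SF3 median was 0.14, with 10 of 19 ratios above 0. The Sm and snRNP median was then higher, 0.34, with 10 of 11 above 0. Snrpb2, a U2 snRNP protein gene, had 0.83. The lowest ratios were those of Srsf2 (-0.75), Hnrnpr (-0.75), Prpf8 (-0.67) and Srsf10 (-0.64), all inside 2-fold. Other probe sets of Srsf10 gave 0.51 and 0.34, and the mean over sets was 0.05. An Srsf2 probe set without the s suffix gave -1.18, past 2-fold, and the other 2 gave 0.11 and 0.15. The 18S control signal of this array was far above that of the others, and its part in these ratios was not tested.

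**Figure D4:**
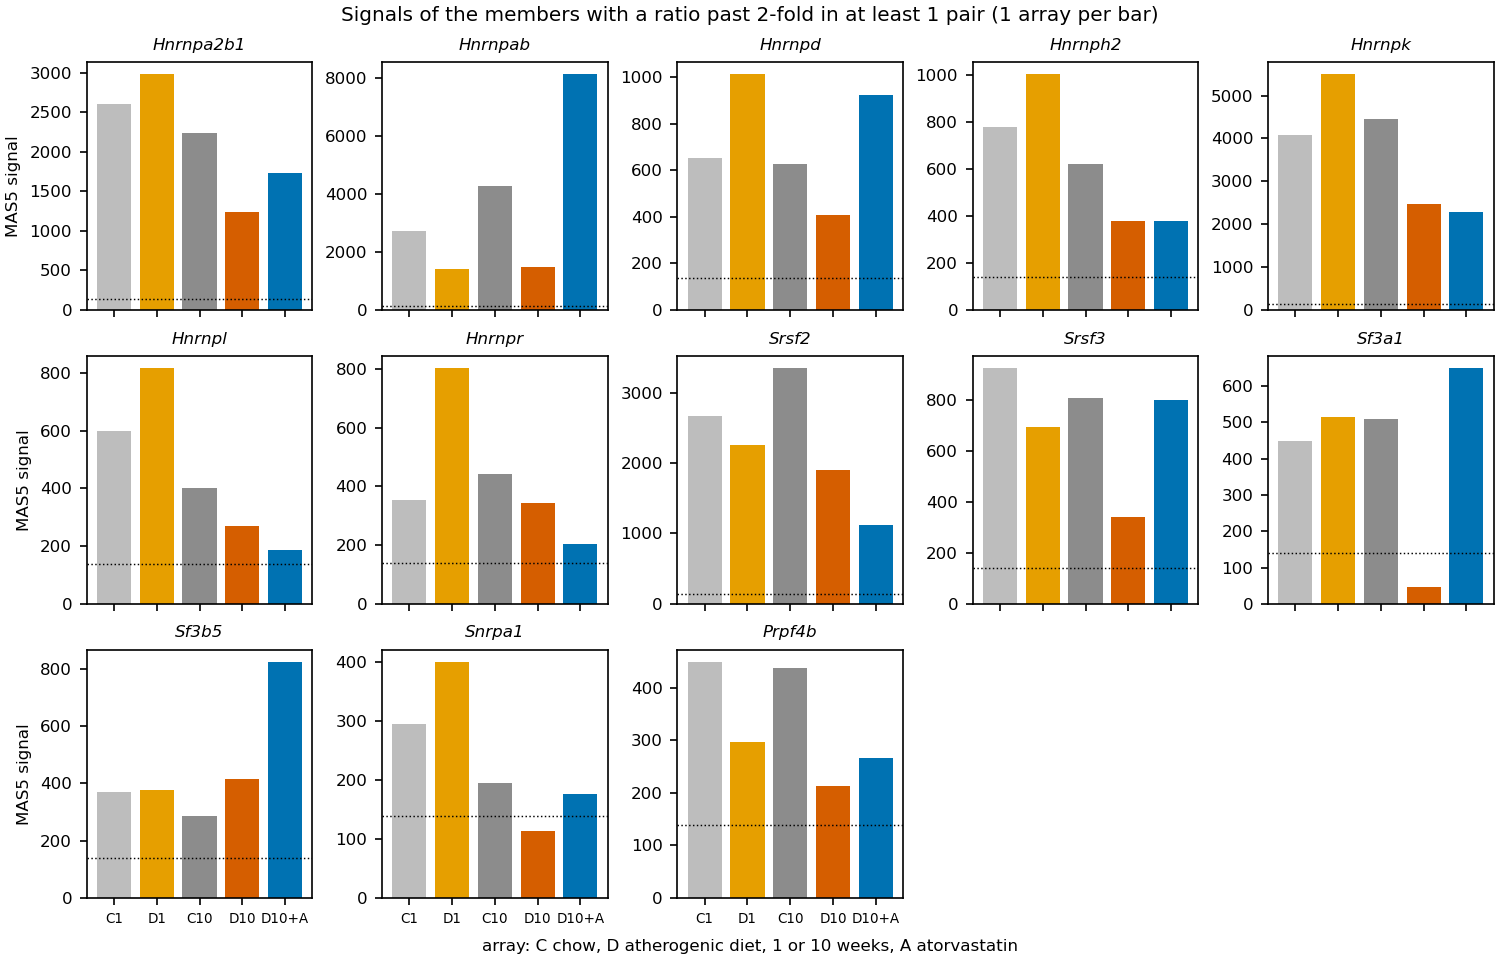
MAS5 signal of the 13 members with a ratio past 2-fold in at least 1 of the 6 pairs, 1 array per bar, on a linear axis from 0; the dotted line is the floor at 138.8. Sf3a1 and Snrpa1 lie below the floor on the 10-week diet array, and Hnrnpab reaches 8127 with atorvastatin.

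Against chow at 10 weeks, the atorvastatin array had 4 of 52 members past 2-fold (7.69%), 3 lower and 1 higher. The background was 2.46% lower, 3.05% higher and 5.51% in all. Lower were Srsf2 (-1.57), Hnrnpr (-1.11) and Hnrnpl (-1.10), with Hnrnpk next (-0.96), and higher was Sf3b5 (1.52). The member median was -0.16 against 0.03 for all genes, and 33 of the 52 ratios were below 0, where 47.8% of all genes were. Set against 1-week chow, 2 members were higher and 3 lower (9.8%, background 4.81%). Macrophage markers had a median of 1.30 here with 7 of 10 past 2-fold higher, and hepatocyte markers -0.52 with 2 of 9 lower, and their part in the members' ratios was not tested.

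Srsf2, which encodes SC35, a defining protein of nuclear speckles, had 2667 and 2251 at 1 week, 3352 on 10-week chow, 1895 on the 10-week diet and 1127 with atorvastatin. The atorvastatin array was the lowest and the 10-week chow array the highest. Its other 3 probe sets gave -0.19, -0.35 and -0.39 in this pair. Hnrnpr was past 2-fold lower by 1 probe set, and another gave 0.99.

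Sf3b5, the gene of a small SF3b subunit, had 369 and 377 at 1 week, 287 on 10-week chow, 415 on the 10-week diet and 826 with atorvastatin. Only the atorvastatin array stood out. Its second probe set was below the floor on all arrays. Sf3b6, the branch-point contacting subunit of SF3b, had 0.60 and Snrpb2 0.61 in the same pair. Other probe sets gave -0.78 and 0.07 for Sf3b6 and -0.38 for Snrpb2, and the means over sets were -0.03 and 0.08, so neither direction is settled.

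Between the 2 chow arrays, which share their feed, 0 of 52 measured members passed 2-fold, where 4.39% of all genes did, 2.44% higher and 1.95% lower. The member median was 0.04. The highest ratios were Srsf5 (0.96), Hnrnpab (0.64), Hnrnpul1 (0.60) and Prpf8 (0.60). The lowest were the Sm protein gene Snrpe (-0.87), Hnrnph1 (-0.85), the U2 snRNP gene Snrpa1 (-0.60) and Hnrnpl (-0.58). The other Hnrnph1 probe set gave 0.26. Of 124 measured probe sets, 2 passed 2-fold upward and 3 downward (4.03%), where 4.63% of all probe sets passed it. Counted by probe set, the members were thus near the background.

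Of the Sm and snRNP genes, the 6 above the floor on every array each had a log2 range below 1 by the probe set used. Snrpa1, below the floor on 1 array, had a wider one. Another probe set also ran wider for Snrpg (153 to 848) and for Snrpb2 (210 to 500). Snrpe had 2397 and 2059 at 1 week and 1311, 1351 and 1385 at 10 weeks on chow, diet and atorvastatin, so both 1-week arrays stood above the 10-week arrays whatever the feed. Snrpb, which encodes the Sm B protein, ran from 1041 to 1403. Snrpd3 had 1164 and 1010 at 1 week, 917 on 10-week chow, 584 on the 10-week diet and 657 with atorvastatin. Snrpa1 had 296 and 401 at 1 week, 196 on 10-week chow, 114 on the 10-week diet, below the floor, and 175 with atorvastatin, at least 2.89-fold lower at 10 weeks of diet than at 1 week. Its other probe sets gave -0.49 and -0.08 in that pair, both as bounds.

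Members not yet described stayed inside 2-fold by the probe sets used. Probe sets not used passed it for several members. Between the diet times one of Sf3b2 gave -1.12 and one of Srsf6 -1.08. One of Prpf6 gave 1.03 in the chow pair and -1.02 for atorvastatin against chow. Those of Snrpg, Srsf1 and Hnrnpu are described below. Hnrnpm and Hnrnpul2, both RNA-binding hnRNP genes, had their highest signals on the 1-week diet array (404 and 1031) and their lowest on the 10-week diet array (294 and 711). A second Hnrnpul2 probe set was also highest on the 1-week diet array (531) but lowest on 10-week chow (318). Hnrnph3, of the hnRNP H family, exceeded the floor on 3 arrays and peaked at 184 after 1 week of diet. By the probe sets used, the branch-point protein gene Sf3b1 ran from 1412 on the 10-week diet to 1815 on the 1-week diet. Sf3a2, an SF3a subunit gene, ran from 758 to 1230 on the same arrays. A second Sf3b1 probe set was lowest with atorvastatin (899) and highest on 10-week chow (1546), and so was a second Sf3a2 probe set (296 and 380). A further Sf3b1 probe set, above the floor on 2 arrays, peaked on the 1-week diet array (207). Prpf38a was below the floor on the 10-week diet array (103), and Prpf40b exceeded it on 10-week chow alone (216). Prpf39 was below the floor on the 10-week diet (117) and with atorvastatin (121) by the probe set used. A second Prpf39 probe set was above the floor on the 10-week diet (172) and below it only with atorvastatin (137). A further one exceeded the floor on 1-week chow alone (164).

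Over all 5 arrays the log2 signal range of the 45 members had a median of 0.83, against 0.72 for all 6929 genes above the floor throughout. By class it was 0.90 for hnRNPs, 0.86 for Sm and snRNP genes, 0.64 for SR proteins, 0.54 for SF3 genes and 0.50 for PRP factors. The widest ranges were those of Hnrnpab (2.53), Hnrnpl (2.13), Hnrnpr (1.98), Srsf2 (1.57), Sf3b5 (1.52) and Srsf3 (1.44). The narrowest, by the probe sets used, were those of Prpf38b (0.25), the SF3a subunit gene Sf3a3 (0.28), Sf3b4 (0.29) and Prpf6 (0.32). Sf3b4 ran from 809 to 986 and Prpf6, a bridging protein gene of the tri-snRNP, from 874 to 1092. Dimmer probe sets of Prpf6 (84.4 to 284) and Prpf38b (71.5 to 237), not above the floor on every array, ran wider. Hnrnpu, the gene of a scaffold attachment protein, also varied little by the probe set used (2255 to 2823).

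Probe sets of 1 gene often disagreed. Disagreement was taken as log2 ratios of opposite sign with 1 past 2-fold, or a difference of at least 1, between measured probe sets of a gene. Of the 36 members with several probe sets, 24 disagreed in at least 1 comparison. They were Hnrnpa2b1, Hnrnpab, Hnrnpc, Hnrnpdl, Hnrnpf, Hnrnph1, Hnrnpk, Hnrnpr, Hnrnpu, Srsf1, Srsf2, Srsf3, Srsf6, Srsf10, Sf3a1, Sf3b2, Sf3b6, Snrpa1, Snrpb2, Snrpd3, Snrpg, Prpf4b, Prpf6 and Prpf19.

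In the pair of diet times 19 of 34 members with several measured probe sets disagreed (55.9%), against 31.3% of all such genes. In the chow pair it was 12 of 34 against 17.2%, for the diet at 10 weeks 11 of 31 against 21.3%, for atorvastatin against the diet 11 of 32 against 15.7%, for atorvastatin against chow 10 of 33 against 20%, and for the diet at 1 week 5 of 34 against 15.1%. Members have more probe sets than most genes. Among genes with 3 or more measured probe sets, 16 of 20 members disagreed in the pair of diet times, where 50.7% of all such genes did, and 3 of 14 members with 2 did, against 21.9%.

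Snrpg, which encodes the Sm G protein, gave the widest difference. The probe set not used for the gene had 640 and 451 at 1 week, 738 on 10-week chow, 153 on the 10-week diet and 848 with atorvastatin, whereas the one used had 1028, 1212, 1034, 873 and 674. The first dropped on the 10-week diet array alone and gave -2.28 against 10-week chow, and the second gave -0.24. Its profile over the arrays had the same low array as Sf3a1 and Srsf3.

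Srsf1, the gene of the founding SR protein, had 6 probe sets above the floor on all arrays. The one used gave 0.32 for the diet at 10 weeks and another gave -1.02. In the chow pair 2 Srsf1 probe sets were past 2-fold lower (-1.23 and -1.08) and the one used gave -0.54. Hnrnpu had 1 probe set with 34.4 on 10-week chow against 145 to 311 on the other arrays, a drop that its other 4 probe sets did not show. Hnrnpr likewise had a second probe set with 145 on 10-week chow against 287 to 443 on the others, and Hnrnpf one with 2014 on the diet at 1 week against 747 to 1240. Sf3b6 had 1557 from one probe set on 10-week chow, its highest array, where the probe set used had its lowest signal, 738.

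**Figure D5:**
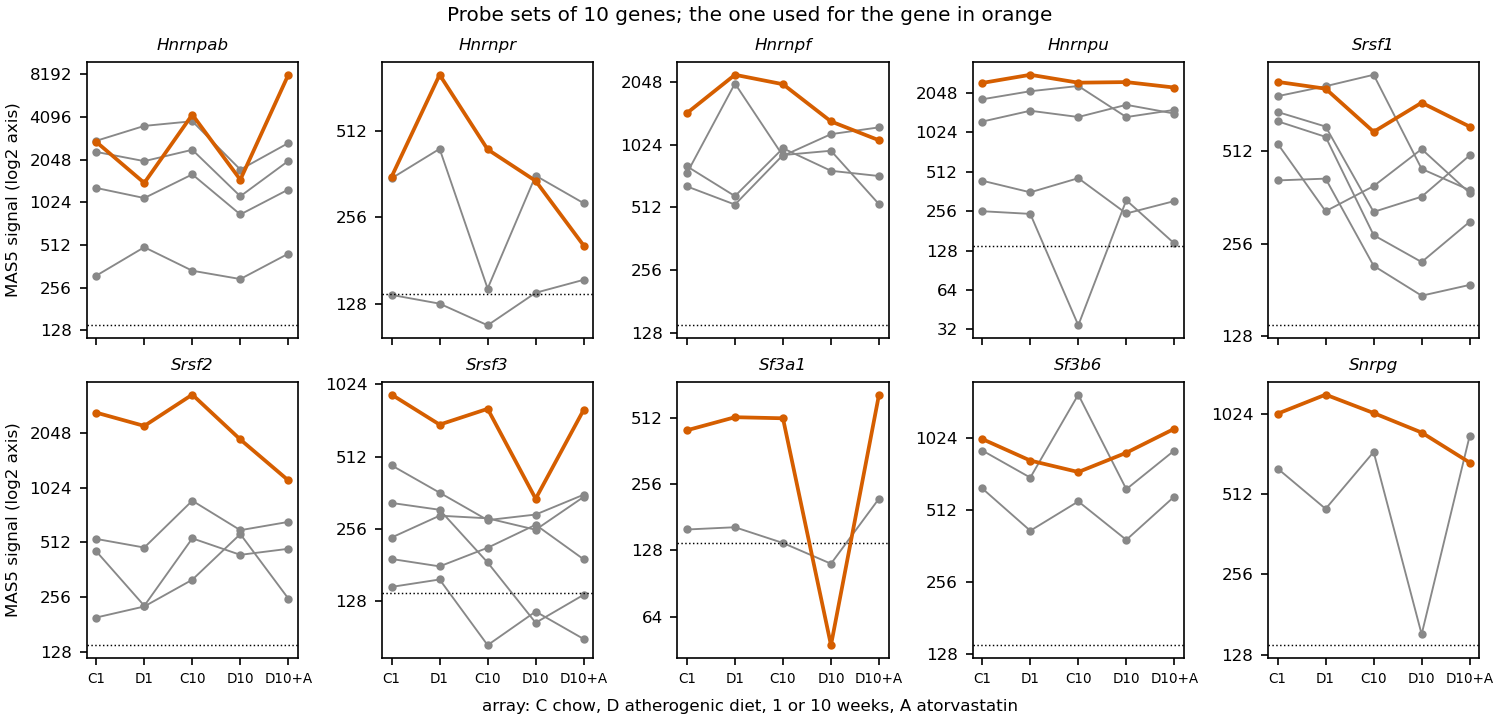
MAS5 signal on a log2 axis over the 5 arrays for probe sets of 10 genes that were above the floor, the dotted line at 138.8, on at least 1 array; the probe set used for the gene is orange and the others are grey. Single probe sets of Sf3a1 and Snrpg fall on the 10-week diet array (47.7 and 153), and single probe sets of Hnrnpu and Hnrnpr on the 10-week chow array (34.4 and 145).

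Other splicing genes, from 6 lists of spliceosome parts, snRNP assembly, splice site recognition, SR kinases, exon junction and RNA-binding regulators, covered 118 of 143 listed genes. Between the diet times 9 of 111 measured were at least 2-fold lower and 3 higher, with a median of -0.30, where 3.68% of all genes were lower and 4.78% higher. For the diet at 10 weeks 6 of 108 were lower and 3 higher (median -0.20), where 3.07% and 3.59% of all genes were. At 1 week 2 of 111 were lower and 0 higher (median 0.09), against 1.24% and 1.06%. With atorvastatin 3 of 110 were lower and 3 higher against the diet (median -0.03), where 2.12% and 2.16% of all genes were. Against chow 6 of 109 were lower and 0 higher (median -0.15), against 2.46% and 3.05%. In the chow pair 2 of 111 were lower and 2 higher (median 0.01), against 1.95% and 2.44%.

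Between the diet times the splice site recognition and SR-related genes had a median of -0.50 and the RNA-binding regulators -0.36, while the other spliceosome core genes had 0.01 with 2 of 32 higher and 0 lower. The remaining lists had medians of -0.27 for snRNP assembly (1 of 8 higher, 1 lower), 0.09 for SR kinases (0 of 6 past 2-fold) and -0.17 for the exon junction and export genes (2 of 8 lower). At 1 week the medians of the first 3 lists were 0.17, 0.15 and -0.05. Sfpq, a paraspeckle protein gene, had 842 and 659 at 1 week, 468 on 10-week chow, 199 on the 10-week diet and 406 with atorvastatin, a ratio of -1.72 between the diet times and -1.23 at 10 weeks. Luc7l2, a U1-associated factor gene, had -1.46 between the diet times, and Casc3, of the exon junction complex, -1.59 as a bound.

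Qk, which encodes the STAR-domain regulator Quaking, had -1.18 for the 10-week diet and -1.31 for atorvastatin against chow. Dazap1, an RNA-binding protein gene, had -1.57 in the latter and -1.15 against the diet, both bounds because its atorvastatin signal was below the floor. Scaf11, an SR-related gene, had -1.47 for atorvastatin against chow and 1.70 between the chow arrays. Srpk1, an SR protein kinase gene, had -1.08 at 1 week of diet, and bounds of 1.37 at 10 weeks and -1.57 in the chow pair, since its 10-week chow signal (86.6) was below the floor. Scaf8, a further SR-related gene, had -1.35 at 1 week, Snrnp40, a U5 snRNP gene, a bound of -1.14 with atorvastatin against the diet, Casc3 a bound of 1.22 there, and Prmt5, an arginine methyltransferase of Sm proteins, 1.11 in the chow pair.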

How the data were processed

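Liver RNA of 5 groups was measured on 1 array each, from pools of livers, and the labels do not state how many livers each held. The deposited intensity values are MAS5 signals made by the authors, per the submitters' processing notes, and the software version is not given there. Symbols came from the platform's annotation, which can be old. Of 22690 probe sets, 20380 had 1 symbol, 691 several and 1606 none listed, and 14 with several symbols that name a family member were left out. Arrays were rescaled to a common 2% trimmed mean (500.2 on each), floored at the 40th percentile and taken to log2, with Python 3.11.15, numpy 2.4.6 and pandas 2.3.3. A signal at the floor gives a bound. The calculation was tested on simulated data. Precision is limited by 1 array per group, with no error estimate. Genes were named by rule: members past 2-fold, the 4 highest and lowest ratios per comparison, the 6 widest and 4 narrowest ranges, genes whose probe sets disagreed, and up to 3 other splicing genes per comparison. Other genes and probe sets were named after their values were seen. The members, gene lists and marker lists were chosen with earlier results of these data known. Alternatives covered scaling, floor, probe set, reference and fold.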

Additional observations from a re-analysis of the deposited data

Results flagged for a closer look

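The ratio of diet to chow for Hnrnpd was 0.64 at 1 week and -0.63 at 10 weeks, a difference of -1.26 on the log2 scale. For Hnrnpf it was 0.61 at 1 week and -0.59 at 10 weeks, a difference of -1.21. Both drew attention because the 2 times lay past 1.5-fold in opposite directions. With 1 array per group the difference was not tested. Among genes measured at both times, 2 of 50 members (4.0%) and 238 of 8423 genes in all (2.83%) did so. The other Hnrnpf probe sets gave -0.29, 1.43 and -0.48 at 1 week and, in the same order, 0.07, 0.35 and -0.36 at 10 weeks. None of them changed from higher to lower on the diet, so the Hnrnpf reversal rests on the probe set used. With the mean of its probe sets the Hnrnpf ratios were 0.32 at 1 week and -0.13 at 10 weeks.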

How the results depend on the processing

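With 1 array per group, leaving out a replicate was not possible. No paired analysis was possible because each group has 1 array. The SD of all log2 ratios between the chow arrays, 0.48, stood in for the replicate spread, and the cause of the differences was not tested. For the 10-week diet against chow, 4 members were past 2-fold in the main setting, 2 with a floor at the 60th percentile, 2 with a pseudocount, 1 with the mean of a gene's probe sets, 8 against 1-week chow, 16 at 1.5-fold and 1 at 3-fold. Its median of -0.26 was -0.18 with the mean of probe sets and -0.13 against 1-week chow. At 1 week the count of 1 was 2 after quantile normalization, 2 against the mean of both chow arrays, 0 with a pseudocount, 0 with the mean of probe sets, 0 without x and s probe sets, 7 at 1.5-fold and 0 at 3-fold. Its median of 0.18 was 0.09 with the mean of probe sets. For atorvastatin against the diet the count of 4 was 2 with a pseudocount, 11 at 1.5-fold and 2 at 3-fold. For atorvastatin against chow the count of 4 was 2 with the 60th percentile floor, 2 with a pseudocount, 1 with the mean of probe sets, 2 without x and s probe sets, 18 at 1.5-fold and 0 at 3-fold. Its median of -0.16 was -0.08 with the mean of probe sets. Between the diet times the count of 9 was 5 with the mean of probe sets, 20 at 1.5-fold and 2 at 3-fold. Between the chow arrays the count of 0 was 1 without x and s probe sets and 8 at 1.5-fold. For these other settings the share of all genes was not computed, except against 1-week chow (6.34% for the 10-week diet). The counts at those settings therefore have no background and do not show whether members exceed it. Hnrnpr in atorvastatin against chow went from -1.11 to 0.01 with the mean of probe sets and to 0.99 without x and s probe sets. Of 22 named ratios past 2-fold, 22 stayed past it without rescaling, 22 after quantile normalization, 16 with the 60th percentile floor, 13 with a pseudocount, 7 with the mean of probe sets and 18 without x and s probe sets. The hnRNP settings were chosen after seeing the data, and over all of them 15 to 18 hnRNP genes were above the floor on every array. Of these, 9 to 12 were highest on the 1-week diet array, where 16.7% to 21.6% of all genes were. Lowest with atorvastatin were 7 to 11, where 17.7% to 20.4% of all genes were.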
